A study of Mus musculus with 9 samples.

Results

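Osteocytes are the cells that remain when osteoblasts bury themselves in the bone matrix they have made. The 6 genes followed here are ones by which the step from osteoblast to osteocyte is commonly recognised: Pdpn and Phex, which are taken as early osteocyte genes, Sost and Fgf23, which are taken as late ones, and Cd44 and Fam20c, which are active in osteocytes but belong to neither group. They were found by their gene symbols in the deposited tables, where they occupy 7 rows of the 40526 genes listed for every library, because Pdpn is listed under 2 identifiers. Of the 6 genes, 4 (Phex, Sost, Cd44 and Fam20c) were high enough to be tested between day 7 and day 0. Fgf23 gave at most 3 reads in a library, and Pdpn is listed at 0 in all 9 libraries.

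The libraries come from primary calvarial cells, which are bone-forming progenitors released with collagenase I from the skulls of newborn C57BL/6 mice (C57BL/6J in the study's methods). At day 0 the cells had grown to confluency and had not been differentiated; at day 4 and day 7 they had been fed for that many days with β-glycerol phosphate and ascorbic acid, which lets them lay down and mineralize matrix. The sample titles name no genetic change and no drug. The study's methods list wild-type and ColI-GFP transgenic pups of both sexes, without saying which of them gave the sequenced RNA. Each day had 3 biological replicates. The cells were dissociated before RNA extraction, and by the study's methods the differentiated cells passed through collagenase I before trypsin, for longer at day 7 than at day 4, so that the length of culture and the dissociation cannot be told apart. The summed level of 9 osteoblast markers was 4499 to 5273 RPKM at day 0 and 14756 to 18527 RPKM at day 7. Most of the day 0 sum came from Col1a1, Col1a2 and Spp1, with means of 2158, 1643 and 961 RPKM. Bglap and Bglap2 were barely detected at day 0, at means of 0.55 and 0.82 RPKM. They had 3 to 5 and 2 to 8 reads in a library, and Ibsp averaged 3.82 RPKM. Of the 9 markers, 8 were higher at day 7 and Runx2 did not pass the test (log2 fold change 0.23, adjusted p = 0.268). Over all 12712 genes tested, 12.6% were called higher and 18.6% lower. Bglap and Bglap2 were high enough to be tested only through their day 7 level. Runx2 was called higher, by 0.34 to 0.39, with DESeq2, edgeR, voomWithQualityWeights and median-of-ratios scaling (adjusted p = 0.00467 to 0.0369). RPKM scales the reads of a gene to its length and to the reads of the library, so RPKM levels can be set side by side between genes.

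Phex is a cell-surface enzyme of the neprilysin family, and its loss causes the phosphate wasting of X-linked hypophosphatemia. Fgf23 is the hormone with which osteocytes make the kidney excrete phosphate, and Fam20c is the kinase of the secretory pathway that phosphorylates Fgf23 and the matrix proteins of the SIBLING family. Sost encodes sclerostin, a secreted inhibitor of Wnt signalling that binds the receptors Lrp5 and Lrp6 and slows bone formation. Pdpn encodes podoplanin, a membrane glycoprotein linked to the growth of osteocyte processes, and Cd44 is the main receptor for the matrix sugar hyaluronan, which also binds podoplanin and osteopontin.

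The starts of the 4 genes below are shown because Phex, Sost and Fgf23 share a short run of letters close to their start that Cd44, which was expressed at every day, lacks. All 6 genes matched a start-site window in RefSeq on GRCm38.p6, and each printed stretch is the 150 bases before the RefSeq start, read 5′ to 3′ on the gene's own strand. Capitals mark the letters TTTAAAA.
Phex, chrX:157415287-157415436, minus strand: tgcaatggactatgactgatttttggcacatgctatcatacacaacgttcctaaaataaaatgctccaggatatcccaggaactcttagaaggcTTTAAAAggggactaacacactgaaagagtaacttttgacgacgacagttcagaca
Sost, chr11:101967016-101967165, minus strand: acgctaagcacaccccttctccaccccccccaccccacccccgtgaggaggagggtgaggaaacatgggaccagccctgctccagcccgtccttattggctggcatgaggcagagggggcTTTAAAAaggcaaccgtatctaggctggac
Fgf23, chr6:127072752-127072901, plus strand: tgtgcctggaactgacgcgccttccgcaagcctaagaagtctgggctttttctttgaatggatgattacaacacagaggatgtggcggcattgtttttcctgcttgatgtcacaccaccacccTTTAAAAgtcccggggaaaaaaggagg
Cd44, chr2:102901666-102901815, minus strand: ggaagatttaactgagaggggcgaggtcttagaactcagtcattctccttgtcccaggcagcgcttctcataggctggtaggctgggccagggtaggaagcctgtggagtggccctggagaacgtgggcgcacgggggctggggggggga
Counted back from the RefSeq start, the run begins at -30 in Sost, -27 in Fgf23 and -56 in Phex. GENCODE M21 places the start of Phex 26 bases further upstream, and from that start the run begins at -30. The run was picked after these sequences had been read. It occurs within the 60 bases before the start, on the transcribed strand, in 1.03% of 32851 RefSeq windows, and anywhere in the 250 bases before the start, on either strand, in 8.1%. No TTTAAAA was found in the windows of Cd44, Fam20c and Pdpn, and no TATAAA in those of any of the 6 genes, against 12.4% of all windows. The E-box letters CANNTG occur in 66.2% of windows, and the 4 genes Sost, Phex, Fgf23 and Pdpn each hold them.

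Phex was the gene that separated the undifferentiated cells most clearly from both later days. The gene lies at chrX:157162075-157415312 on the minus strand (GRCm38, ENSMUSG00000057457) and has 6291 exonic bases. Its level was 0.272, 0.173 and 0.103 RPKM in replicates 1 to 3 of day 0, from 24, 13 and 5 reads. At day 4 the 3 libraries held 5.65, 9.48 and 5.98 RPKM. At day 7 they held 8.47, 11.7 and 6.98 RPKM. Every differentiated library therefore lay far above every day 0 library, whereas the libraries of day 4 and day 7 overlapped. In the order of the days, the means were 0.182 ± 0.0851, 7.04 ± 2.12 and 9.06 ± 2.43 RPKM (SD, n = 3 each). Between day 7 and day 0, the log2 fold change by limma on log2(CPM + 0.5) was 5.14 (SE 0.218, adjusted p = 4.87e-25), and the ratio of the mean CPM was 49.6-fold. CPM scales reads to the library's total and not to the length of a gene. The exact two-sided permutation p over the 6 libraries was 0.1, which is the smallest that 3 libraries against 3 allow. In bulk RNA of this kind, a larger share of cells that express a gene and more of its RNA in each cell cannot be told apart.

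Sost stayed near or under the floor of detection until after day 4. The gene lies at chr11:101962458-101967015 on the minus strand (ENSMUSG00000001494) with 2066 exonic bases. Day 0 gave 0, 1 and 1 reads in its 3 libraries, which is 0, 0.0405 and 0.0625 RPKM and lies under the floor of 3 reads everywhere. Day 4 gave 10, 5 and 4 reads in libraries sequenced more deeply, or 0.147, 0.0648 and 0.0537 RPKM. Day 7 gave 149, 140 and 104 reads, or 5.28, 6.34 and 3.22 RPKM. The libraries of day 0 and day 4 overlapped in RPKM, and each day 7 library stood above all 6 others. The means were 0.0343 ± 0.0317, 0.0886 ± 0.0512 and 4.95 ± 1.59 RPKM (SD, n = 3 each). Set against 3 reads in each day 0 library, day 7 was at least 36-fold higher. The fitted log2 fold change of 4.19 (SE 0.264, adjusted p = 2.14e-18) rests on the added 0.5 CPM, and the exact permutation p was 0.1. From day 4 to day 7 the mean CPM differed 55.8-fold. The day 4 libraries lie in a table of their own and were deeper, so that stage, table and depth cannot be told apart in this and every other comparison with day 4.

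**Figure D1:**
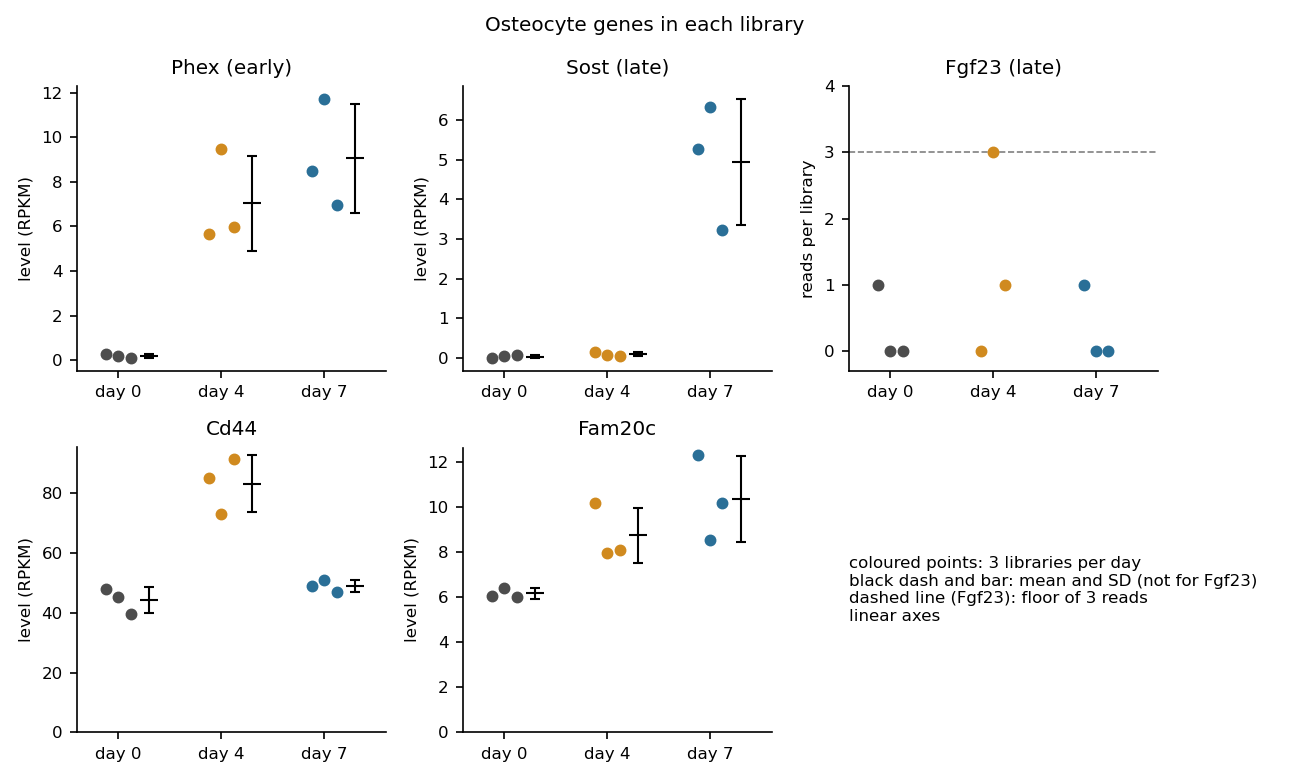
Levels of Phex, Sost, Cd44 and Fam20c in RPKM, and reads of Fgf23, in each of the 9 libraries (linear vertical axes; coloured points are libraries by day, black dashes and bars the mean and SD of 3, not drawn for Fgf23, where a dashed line marks 3 reads). Phex is high at both day 4 and day 7, Sost at day 7 with 3.22 to 6.34 RPKM, and Cd44 at day 4 with 72.8 to 91.5 RPKM, while Fgf23 stays at 0 to 3 reads.

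The other late gene, Fgf23, was not detectable above the floor at any day. It lies at chr6:127072902-127081408 on the plus strand (ENSMUSG00000000182) with 1814 exonic bases. Its reads were 1, 0 and 0 at day 0, 0, 3 and 1 at day 4, and 1, 0 and 0 at day 7. These are 1 read among 33708316 at day 0, 4 among 106163227 at day 4 and 1 among 39953066 at day 7. A count of 3 reads corresponds to 0.118 to 0.214 RPKM at day 0, 0.0443 to 0.0504 at day 4 and 0.106 to 0.155 at day 7, and a level under those limits would not have been seen. No fold change is given, since every library was at or under the floor, and floors cover counting error only. The late group therefore rests on Sost alone.

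Pdpn, the second early gene, could not be followed. Its rows, ENSMUSG00000028583 at chr4:143267431-143299564 on the minus strand and ENSMUSG00000096951, are both listed at 0 in all 9 libraries. The second identifier is not in GENCODE M21. Per the study's methods, reads were counted where they aligned uniquely and fell on a single gene. Of the 60 protein-coding symbols with 2 or more identifiers in the tables, 41 (68.3%) are listed at 0 in every library, against 4168 of 21491 symbols with 1 identifier (19.4%). Prdm2, on one side of Pdpn, has 1 identifier and 7581 reads over the 9 libraries, whereas Lrrc38, the next gene on the other side, has 2 identifiers and is listed at 0. The zeros of Pdpn were accordingly not read as an absence of its RNA, and the early group rests on Phex alone.

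Fam20c differed by less than either Phex or Sost and was already well expressed before differentiation. The gene lies at chr5:138754514-138810077 on the plus strand (ENSMUSG00000025854) with 6590 exonic bases. Its level was 6.06, 6.43 and 6.02 RPKM at day 0. At day 4 it was 10.2, 7.99 and 8.12 RPKM. At day 7 it was 12.3, 8.53 and 10.2 RPKM. All day 4 and day 7 libraries lay above all day 0 libraries, and the later days overlapped. The means were 6.17 ± 0.227, 8.76 ± 1.23 and 10.4 ± 1.91 RPKM (SD, n = 3 each), and day 7 against day 0 gave a log2 fold change of 0.72 (SE 0.168, adjusted p = 6.48e-04) with an exact permutation p of 0.1.

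Cd44 was the most abundant of the 5 genes other than Pdpn at each day and stood highest at day 4. The gene lies at chr2:102811141-102901665 on the minus strand (ENSMUSG00000005087) with 6776 exonic bases. It was measured at 47.9, 45.1 and 39.5 RPKM at day 0. The day 4 libraries held 84.9, 72.8 and 91.5 RPKM. The day 7 libraries held 48.7, 51.0 and 46.8 RPKM. Each day 4 library was above each of the 6 others, as it was for 8.07% of the 12782 genes with a mean of at least 1 CPM over the 9 libraries. Means were 44.2 ± 4.26, 83.1 ± 9.45 and 48.8 ± 2.09 RPKM (SD, n = 3 each), so that the mean CPM at day 4 was 1.88-fold that at day 0. Between day 7 and day 0 the log2 difference of 0.15 (SE 0.153, 95% interval -0.16 to 0.46) did not pass the test (adjusted p = 0.5, exact permutation p = 0.2). This call depends on how libraries are scaled. With median-of-ratios scaling Cd44 was higher at day 7 by 0.26 (adjusted p = 0.0375), with DESeq2 by 0.26 (adjusted p = 0.0181) and with voomWithQualityWeights, the study's own method, by 0.29 (adjusted p = 0.0135), whereas edgeR gave an adjusted p of 0.0502.

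Among the 4 genes tested, 3 were higher at day 7 than at day 0 (Phex, Sost and Fam20c), and limma called 0 lower, with 0 lower at an unadjusted p under 0.05 and 0 by edgeR or DESeq2. Over all 12712 genes tested, 12.6% were called higher, 18.6% lower and 31.2% either way, with a median log2 fold change of -0.11. Sost averaged 0.0709 CPM at day 0 and 10.2 CPM at day 7, so it entered the test only through the day at which it was high. By overlap alone, the same 3 genes had every day 7 library above every day 0 library (17.1% of the 12782 genes) and Phex, Cd44 and Fam20c had every day 4 library above every day 0 library (21.6%). Sost had every day 7 library above every day 4 library (13.6%), Cd44 had them all below (25%), and 0 of the 4 were separated upwards at both steps (3.07%). The medians of the groups cannot be compared, since the early and the late group each hold 1 measured gene. None of the 6 genes shares exonic bases with another gene on either strand in GENCODE M21 (0%). In RPKM, the order at day 7 was Cd44, Fam20c, Phex, Sost and Fgf23, where Fam20c and Phex did not differ beyond their spread. The same pair overlapped at day 4, and at day 0 Sost and Fgf23 overlapped under the floor.

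Phex and Sost, on which the early and the late group rest, were separated by how much of their difference between day 0 and day 7 was present at day 4. On the log2(CPM + 0.5) scale, Phex differed by 4.78 between day 4 and day 0 and by 0.37 between day 7 and day 4, so 92.9% of its difference was present at day 4. For Sost these steps were 0.25 and 3.93, and 6.08% was present at day 4. Its mean was 0.0709 CPM at day 0 and 0.183 CPM at day 4, both under the added 0.5 CPM. The size of its first step, and so of its share, therefore depends on that added value. Fam20c lay between them, with steps of 0.49 and 0.23 and 67.9%. Of the 1599 genes that were called higher at day 7 and could be placed this way, the median was 84.8% and the quartiles were 60.8% and 110.4%. Just 3.94% of them had a lower share than Sost, whereas 59.5% had a lower share than Phex. Leaving out 1 library at a time moved the share from 88.3% to 96.6% for Phex, from 3.13% to 7.87% for Sost and from 52.4% to 83.3% for Fam20c. These shares are descriptions, since day 4 entered no test.

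Ratios within a library do not depend on the scaling between libraries or tables. Phex stood at a log2 ratio to Cd44 of -8.03 ± 0.565 at day 0, -3.60 ± 0.566 at day 4 and -2.46 ± 0.318 at day 7 (RPKM, SD, n = 3 each), a difference of 5.56 between day 7 and day 0. Its log2 ratio to Fam20c went from -5.19 at day 0 to -0.35 at day 4 and -0.21 at day 7, which is close to equal levels. The ratio of Cd44 to Fam20c was 2.84 ± 0.135, 3.25 ± 0.223 and 2.25 ± 0.302. For each of the 3 ratios the day 7 and day 0 libraries did not overlap, with an exact two-sided permutation p of 0.1, which stays 0.1 after Benjamini-Hochberg adjustment over the 3. Per 100 RPKM of Phex, Sost amounted to 2.61, 0.684 and 0.898 RPKM at day 4 and to 62.3, 54.1 and 46.2 RPKM at day 7. The change in proportion between both genes was therefore seen in every library of these days. At day 0 the same quantity is 0, 23.4 and 60.9, but it rests there on at most 1 read of Sost.

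Among further osteocyte genes that were higher at day 7, 5 of 7 (Dmp1, Mepe, Ptprz1, Ackr3 and Capg) had at least 80.2% of their log2 difference present at day 4. That share is an ordinary one, since the median over all 1599 such genes was 84.8% and 44.8% of them lay below Ackr3, the lowest of the 5. Of a list of 12 such genes, Destn matched no symbol and 3 fell under the filter of a mean of 1 CPM. Of the 8 tested, 7 were higher at day 7, against 12.6% of all genes tested. The filter bears on this count. Dmp1, Mepe and Dkk1 averaged 0.540, 0.0430 and 0.157 CPM at day 0 and passed it only through day 7. Cttnbp2 and Reln averaged 1.61 and 1.12 CPM at day 0, and fell under it with 0.221 and 0.353 CPM at day 7. The 8 had a median log2 fold change of 2.69, or 3.14 with Mepe and Dkk1 at their lower bounds. Dmp1, a phosphoprotein of the mineralizing matrix, had 5 or 6 reads in each day 0 library, 69.4 to 98.5 RPKM at day 4 and 59.1 to 122 RPKM at day 7, and 100.1% of its log2 difference was present at day 4. Mepe, another SIBLING protein, gave 0, 0 and 1 reads at day 0, then 1.41 to 2.90 RPKM at day 4 and 1.94 to 4.87 RPKM at day 7, at least 21.1-fold higher than day 0. For Ptprz1, a receptor phosphatase, the means were 0.232, 10.9 and 23.2 RPKM and 82.3% was present at day 4. For Ackr3, a scavenging chemokine receptor, they were 6.35, 18.0 and 24.2 RPKM and 80.2%.

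Dkk1 and Irx5 came nearer to Sost. Dkk1, a secreted Wnt inhibitor like Sost, gave 3, 0 and 2 reads at day 0, 2.57, 3.65 and 2.78 RPKM at day 4, and 28.5, 29.1 and 21.2 RPKM at day 7. Its day 7 libraries stood above all others and were at least 224.6-fold over day 0, but unlike Sost it was clearly present at day 4, with 54.0% of its log2 difference. The transcription factor Irx5 was at 16.7, 16.3 and 28.8 RPKM on average, so its difference of 0.77 (adjusted p = 1.42e-04) lay wholly after day 4. Capg, a protein that caps actin filaments, was highest at day 4 with 75.1 RPKM and stood at 26.6 and 55.9 RPKM at day 0 and day 7. Gja1, the gap junction protein that joins osteocyte processes, did not pass the test (0.24, adjusted p = 0.260) and was also highest at day 4, at 134 RPKM. It was called higher at day 7, by 0.28 to 0.35, with DESeq2, edgeR, voomWithQualityWeights and median-of-ratios scaling (adjusted p = 0.00332 to 0.0330). Cttnbp2, Reln and Npy were low in every library, with a highest value of 1.03 RPKM (Npy, day 7 replicate 1). In the order of the days, Cttnbp2 averaged 0.182, 0.0405 and 0.0249 RPKM and Reln 0.0564, 0.0392 and 0.0178 RPKM. For these 2 genes, but not for Npy, every day 7 library lay below every day 0 and day 4 library. The day 7 values rest on 2 to 4 reads of Cttnbp2 and 4 to 5 reads of Reln. The list held 0 genes called lower by limma, also at an unadjusted p under 0.05; without the filter on low levels 2 were called lower, and without any 1 of the day 7 libraries 1 was.

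**Figure D2:**
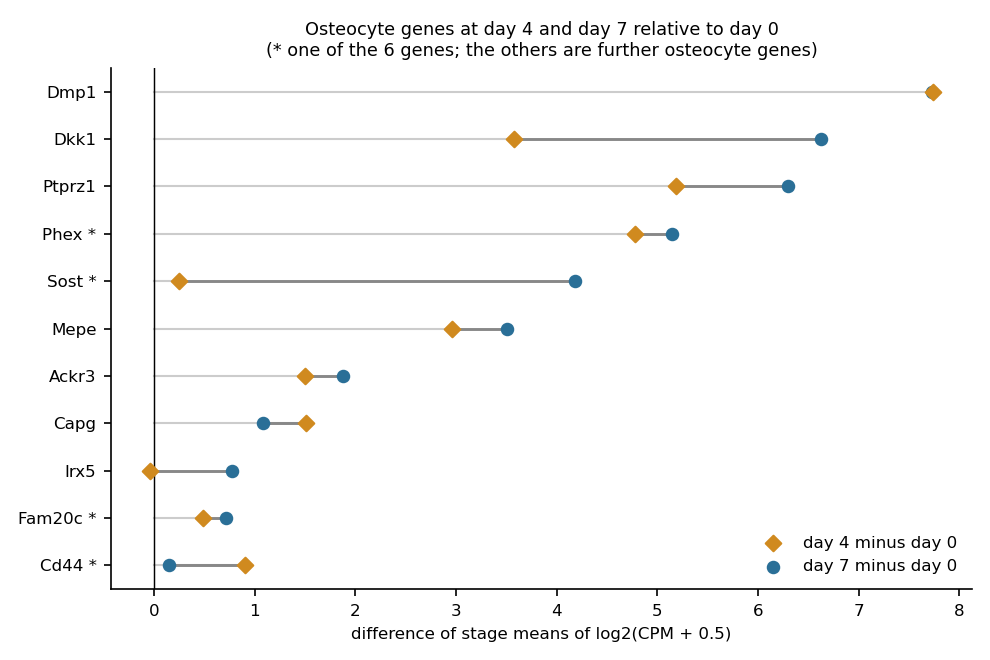
Difference of stage means of log2(CPM + 0.5) against day 0 for the osteocyte genes, at day 4 (diamonds) and at day 7 (circles), with the genes on the vertical axis and asterisks on 4 of the 6 genes followed. For Phex and Dmp1 both marks lie close together, and for Sost the day 4 mark lies at 0.25 and the day 7 mark at 4.19.

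Genes around sclerostin moved in both directions. Of 12 genes of this axis, all tested, 4 were higher at day 7, 3 were lower and 5 did not pass, with a median log2 fold change of 0.29. Of all genes tested, 12.6% were called higher and 18.6% lower. Mef2c, the transcription factor known to act on a distant enhancer of Sost, was at 5.71, 6.55 and 4.01 RPKM at day 0, 22.4, 31.2 and 25.4 at day 4, and 52.5, 50.1 and 45.3 at day 7. Unlike Sost, it was thus well expressed at day 4, and its log2 fold change between day 7 and day 0 was 3.19 (adjusted p = 7.42e-22). Pth1r, the receptor for parathyroid hormone, whose activity lowers Sost, had means of 31.6, 98.0 and 268 RPKM (log2 fold change 3.09, adjusted p = 1.61e-21). Mef2a and Mef2d were higher by 0.81 and 0.71. The sclerostin relative Sostdc1 was lower by 1.23 on the log2 scale (log2 fold change -1.23, adjusted p = 2.38e-05), after a day 4 mean of 9.98 RPKM that was above that of day 0. Of the receptors, Lrp6 was lower (-0.58, adjusted p = 0.00233), while Lrp5 and Lrp4 stood at 0.36 and 0.29 without passing. Under median-of-ratios scaling, edgeR and DESeq2 the number higher was 7 and with voomWithQualityWeights 8, since Lrp4, Lrp5 and Hdac5 then passed, and with the last of these methods Sik3 as well (0.31, adjusted p = 0.0214). The kinase Sik2 was called lower (-0.47, adjusted p = 0.0370). It lost the call when day 0 replicate 2 or any day 7 library was left out (adjusted p = 0.0610 to 0.202). The call was also lost with median-of-ratios scaling, edgeR, DESeq2, the RPKM table, no filter or a replicate block (0.0593 to 0.0812).

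Although Fgf23 itself was not detected, most genes that act on it or on phosphate were expressed and higher at day 7. Of 10 genes of this axis, 8 were tested and 6 of them were higher, against 12.6% of all genes tested, with a median of 1.28. Limma called 0 lower, also unadjusted, against 18.6% of all genes, and the counts were the same under each alternative tried. Galnt3, which glycosylates Fgf23 and shields it from cleavage, was at 2.93, 2.56 and 2.10 RPKM at day 0, 15.7, 17.7 and 16.5 at day 4, and 24.2, 19.5 and 21.8 at day 7 (log2 fold change 3.06, adjusted p = 1.40e-20). Enpp1, which makes pyrophosphate, was highest at day 4 with 20.3 RPKM on average, between 1.83 at day 0 and 8.03 at day 7 (log2 fold change 2.13). The pyrophosphate exporter Ankh, listed as Ank, was also highest at day 4 and higher at day 7 by 1.28. Fgfr3 had means of 4.78, 5.48 and 14.1 RPKM, so its difference arose after day 4 (log2 fold change 1.52). The vitamin D receptor Vdr and the convertase Pcsk5 were higher by 1.27 and 0.87. Furin, the protease that cleaves Fgf23, and Fgfr1 did not pass (adjusted p = 0.333 and 0.983). Kl, which encodes the co-receptor Klotho, and Fgfr4 lay under the filter.

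The relatives of Phex and the partners of Fam20c gave a mixed picture. In the neprilysin family, 4 of 6 genes were tested and 2 were higher, with 0 called lower and 1 lower at an unadjusted p under 0.05. Over all genes tested, 12.6% were called higher and 18.6% lower. Mme, neprilysin itself, had 10.5, 11.8 and 7.89 RPKM at day 0, 28.9, 26.6 and 30.6 at day 4, and 47.5, 33.1 and 38.0 at day 7 (log2 fold change 1.96, adjusted p = 6.02e-14). Ece2 was higher by 0.44 (adjusted p = 0.0387), and this call was lost when any of day 0 replicates 2 and 3 and day 7 replicates 1 and 3 was left out (adjusted p = 0.0605 to 0.191), leaving 1 gene, and also with the RPKM table or no filter. Mmel1 did not pass (0.70, adjusted p = 0.0509) but was called higher with median-of-ratios scaling, edgeR, voomWithQualityWeights, the RPKM table and robust variances and without day 7 replicate 2 (adjusted p = 0.00907 to 0.0423). Phex, at means of 0.182, 7.04 and 9.06 RPKM, was lower than Mme at each day. Fam20a and Fam20b, the other members of the Fam20 family, stood at -0.30 and -0.34 and did not pass (adjusted p = 0.162 and 0.0915), while Fam20c was higher. Fam20b was called lower without day 0 replicate 3 (-0.46, adjusted p = 0.00152) and under each of the 4 other scalings or count models. All 4 tested SIBLING substrates were higher, and Dspp is listed at 0. Of these, Dmp1 and Mepe averaged 0.540 and 0.0430 CPM at day 0 and passed the filter only through day 7. Ibsp, bone sialoprotein, had the largest log2 fold change of the list, 9.43 (adjusted p = 1.33e-41), from a mean of 3.82 RPKM at day 0 to 2808 at day 7. Spp1, osteopontin, was higher by 1.76 and peaked at day 4. With the 2 Fam20 relatives, 4 of 6 tested were higher with a median of 2.63, or 3.08 with Mepe at its lower bound.

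**Figure D3:**
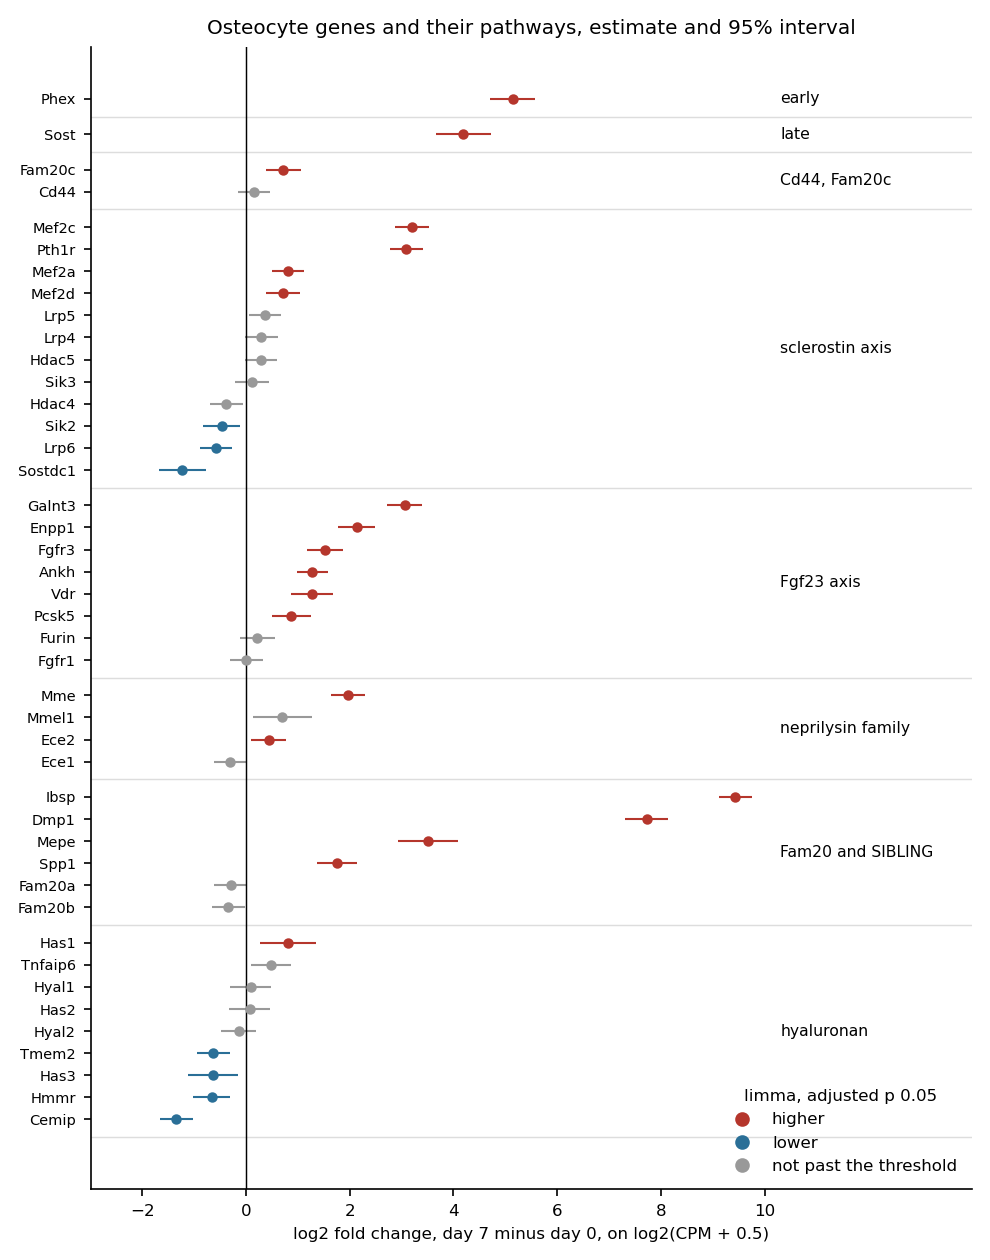
Log2 fold change of day 7 minus day 0 with its 95% interval for the 4 tested osteocyte genes and for the tested genes of 5 lists around them (limma on log2(CPM + 0.5); colour gives the call at an adjusted p of 0.05). Phex and Sost lie at 5.14 and 4.19, Fam20c at 0.72, and the interval of Cd44 crosses 0.

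Genes of hyaluronan, the ligand of Cd44, were called in both directions at day 7. Of 9 tested, 1 was higher, 4 were lower and 4 did not pass, with a median of -0.14. The shares over all genes tested were 12.6% higher and 18.6% lower. Cemip, which helps to degrade hyaluronan, was at 57.8, 54.9 and 57.8 RPKM at day 0 and 27.2, 18.4 and 22.2 at day 7 (log2 fold change -1.35, adjusted p = 2.08e-09). Tmem2, Hmmr and Has3 were lower by 0.63, 0.66 and 0.63 on the log2 scale (log2 fold changes -0.63, -0.66 and -0.63); Has3 lost its call without either of day 0 replicates 1 and 2 or any day 7 library (adjusted p = 0.0789 to 0.129), and also with DESeq2, voomWithQualityWeights, the RPKM table or no filter (0.0519 to 0.150). Has1, a hyaluronan synthase, was higher by 0.80 (adjusted p = 0.0182) and lost its call when day 0 replicate 1, day 7 replicate 2 or day 7 replicate 3 was left out (adjusted p = 0.0526 to 0.124). At day 4 some of these genes resembled Cd44 and others did not. Of the 9, 4 had every day 4 library above every day 0 library, against 21.6% of all genes. Has3, Hyal2 and Cemip had every day 4 library below every day 0 library. Has2, the synthase, had 3.94, 2.70 and 2.19 RPKM at day 0, 7.46, 5.23 and 7.15 at day 4, and 3.58, 2.81 and 2.70 at day 7. Tnfaip6, which crosslinks hyaluronan, was at 4.83 to 7.80 RPKM at day 0, at 49.9 to 75.7 at day 4 and at 8.53 to 10.1 at day 7. Its difference between day 7 and day 0 (0.47, adjusted p = 0.0547) did not pass, but it was called higher with DESeq2, edgeR, voomWithQualityWeights, median-of-ratios scaling and robust variances and without day 0 replicate 1 (adjusted p = 0.00411 to 0.0415), which then left 2 genes higher in all of these but the last, where Has1 was lost. In Has2 and Tnfaip6 each day 4 library stood above all others, as it did for 8.07% of all genes.

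Immediate early genes, which many cells switch on within minutes of handling, had the same shape. All 8 genes of this list were higher in each day 4 library than in each day 0 library, against 21.6% of all genes, and 7 of the 8 were lower again in each day 7 library than in each day 4 library, against 25%. Their summed level was 81.6 to 103 RPKM at day 0, 224 to 272 at day 4 and 105 to 153 at day 7. Fos, for example, averaged 4.85, 23.9 and 5.10 RPKM. Between day 7 and day 0, 4 of the 8 were higher and 1 lower, with Atf3 at 1.21 and Egr1 at -0.83. Leaving out single libraries gave 3 to 5 higher. Junb lost its call without day 0 replicate 3 or day 7 replicate 1 (limma adjusted p = 0.113 and 0.259). It also lost the call with the RPKM table (0.0505). Between the same days, 12.6% of all genes tested were called higher and 18.6% lower. Leukocytes also carry Cd44, and of 8 leukocyte markers 7 were tested and all 7 were higher at day 7, Ptprc by most (1.37, adjusted p = 2.13e-04), with 0 lower, also unadjusted. Their summed level was 7.75 to 12.2 RPKM at day 0, 16.2 to 21.1 at day 4 and 18.1 to 23.5 at day 7, so that it did not fall after day 4 as Cd44 did, and without day 7 replicate 1 the number higher was 4. The part of either list in the values of Cd44 was not tested.

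**Figure D4:**
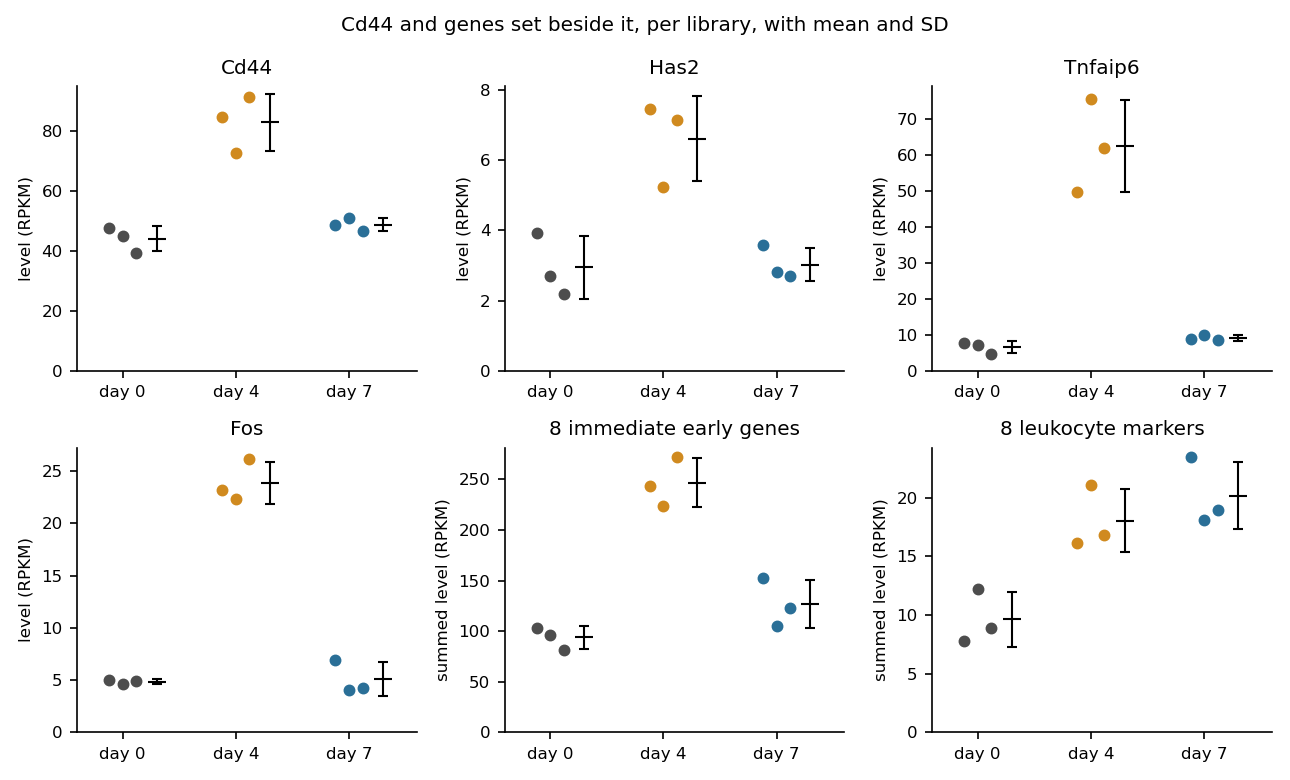
Cd44, Has2, Tnfaip6 and Fos in RPKM and the summed RPKM of 8 immediate early genes and 8 leukocyte markers, per library (coloured points) with mean and SD of 3 (black), on linear axes from 0. Cd44, Has2, Tnfaip6, Fos and the immediate early sum are highest in the 3 day 4 libraries, while the leukocyte sum is at 16.2 RPKM or more on both later days.

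The actin and ERM proteins to which podoplanin and Cd44 couple moved little. Of 10 genes, 9 were tested, 1 was higher, 2 were lower and 6 did not pass, with a median of -0.05. Over all genes tested, 12.6% were higher and 18.6% lower. Pls3, an actin bundler, was higher by 0.46 (adjusted p = 0.0198), which was lost without day 7 replicate 1 or 2 (adjusted p = 0.119 and 0.0637), leaving 0 higher. Ezr, ezrin, was lower (-0.76, adjusted p = 2.02e-04), as was the bundler Fscn1 (-0.62). Msn, moesin, averaged 26.9, 32.6 and 29.0 RPKM and did not pass. Rdx, radixin, did not pass either (-0.31, adjusted p = 0.130). It was called lower with median-of-ratios scaling, DESeq2 and voomWithQualityWeights and without day 0 replicate 3 (adjusted p = 0.00110 to 0.0460). Clec1b, the platelet receptor of podoplanin, is listed at 0.

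Markers of other cells that could carry these genes were checked as whole lists. Of 7 endothelial and lymphatic markers, cells in which Pdpn is also active, 1 was tested and did not pass. Their summed level was 0.340 to 0.660 RPKM over the 9 libraries. The means of Lyve1 and Pecam1 were 0 and 0.0307 RPKM at day 0 and 0.00936 and 0.0305 RPKM at day 7. Prox1 averaged 0.0814, 0.0281 and 0.0268 RPKM in the order of the days, with every later library below every day 0 library. Tek had every day 4 library below every day 0 library, while its day 7 libraries overlapped day 0. Of 6 chondrocyte markers 5 were tested, of which 2 were higher (Comp, 1.60, the most) and 3 lower (Col2a1, -2.16, the most); their summed level was 163 to 468 RPKM at day 0, 54.0 to 170 at day 4 and 64.3 to 162 at day 7. The chondrocyte count of 2 higher became 1 without day 0 replicate 3 or day 7 replicate 1 and with median-of-ratios scaling, edgeR or DESeq2, where Acan was lost (adjusted p = 0.0513 to 0.142), and 0 with robust variances, where Comp was lost too (0.113). Of 6 proliferation genes 4 were lower, Mki67 by most (-0.80, adjusted p = 5.19e-05), and 0 higher, also unadjusted. Leaving out single libraries gave 3 to 6 proliferation genes lower. Among all genes tested, 18.6% were called lower and 12.6% higher. The part of these lists in the levels of the osteocyte genes was not tested.

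The genes whose levels followed the 4 measurable osteocyte genes most closely over the 9 libraries were sought among 12782 genes, by Pearson's r of log2(CPM + 0.5). All values share the 3 days, so high values of r are common, and no p is given. Sost was most like Slc26a7, an anion transporter (r = 0.985), Plppr4 (0.981) and Slc35g1 (0.970). Slc26a7 averaged 0.396, 0.421 and 2.87 RPKM, so it too stood apart at day 7. For Phex these were Rhobtb1 and Adgrd1 (both 0.996) and Col22a1 (0.995), of which the adhesion receptor Adgrd1 averaged 0.179, 6.10 and 8.34 RPKM and the collagen Col22a1 0.0636, 6.38 and 11.6 RPKM. Cd44 was most like Trak2 (0.983), Pkig (0.983) and Wwtr1 (0.982), the last encoding the transcriptional coactivator TAZ. Fam20c was most like Prickle1 (0.981), Exoc3l4 (0.971) and Cox6a1 (0.970). Among the 4 genes themselves, r was 0.59 between Sost and Phex, 0.82 between Phex and Fam20c, 0.69 between Sost and Fam20c, 0.56 between Phex and Cd44, 0.30 between Cd44 and Fam20c, and -0.30 between Sost and Cd44.

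Depth limits the low genes most. Reads on genes numbered 7741204 to 14013219 at day 0, 32820610 to 37306090 at day 4 and 10675858 to 15622755 at day 7. A single noncoding gene, Gm42418, took 12.0% of the reads of day 0 replicate 3 and 8.12% of day 7 replicate 2, and Plekhh2 took 7.95% of day 7 replicate 3. Without day 0 replicate 3 the log2 fold changes of all genes had a median of -0.23 in place of -0.11, and 4699 genes in place of 2369 were called lower with 1631 in place of 1602 called higher, whereas Phex, Sost and Fam20c were called higher without any single library.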

How the data were processed

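RNA was measured in 9 libraries, 3 each of day 0, day 4 and day 7 by the sample titles. Per the study's methods and the submitters' processing notes, the authors depleted ribosomal RNA, aligned reads with STAR 2.0.4b to Ensembl release 76 and used featureCounts (1.45 in the notes) to count, for each gene, reads with a unique and unambiguous alignment. Whether strand was used in counting is not given in the sources used here. The authors deposited CPM values (reads scaled to library size) and RPKM values (scaled to gene length too). Day 0 and day 7 share a table and day 4 has its own. In each library 100% of CPM values were whole multiples of 1 read (within 0.01 reads), so reads were recovered. Columns left unmapped numbered 0.

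The test of day 7 against day 0 used limma 3.58.1 (mean-variance trend, R 4.3.3) on log2(CPM + 0.5). It covered the 12712 genes whose CPM averaged 1 or more over the 6 libraries, with Benjamini-Hochberg adjustment over all of them and a threshold of 0.05; 11075 genes with reads were left out. The variance prior had 42.9 degrees of freedom against 4 residual ones. Day 4 entered no test. Single genes also had an exact two-sided permutation test. Floors are 3 reads. Replicates of a day had Spearman correlations of 0.988 to 0.995 and were not duplicates of each other (chi-square of 11.7 to 203 per degree of freedom). Alternatives used edgeR 4.0.16, DESeq2 1.42.0 and voomWithQualityWeights on the recovered reads, a median-of-ratios scaling, other pseudocounts, no filter, the RPKM table, robust variances, a replicate term and leaving out each library. The fit was tested on simulated data.

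The 6 genes and the lists around them (105 of 106 symbols matched) were chosen with earlier results of these data known. By rule the text names the 6 genes, every further osteocyte gene, the largest called rise and fall of each list, and the 3 genes most alike to each measurable gene; other named genes were chosen after their values were seen. Start-site windows are from RefSeq (GRCm38.p6) and gene coordinates from GENCODE M21 (GRCm38).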

Additional observations from a re-analysis of the deposited data

How the results depend on the processing

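Phex, Sost and Fam20c were called higher at day 7 in each of the 16 alternatives, with log2 fold changes of 3.78 to 5.74, 3.31 to 7.57 and 0.59 to 0.91 (largest adjusted p 1.20e-05, 2.67e-05 and 0.0284). Cd44 kept its direction in all 16, from 0.07 to 0.29, and passed in 3. The count of osteocyte genes higher was 3 or 4 and the count lower was 0 in each alternative, also when single libraries were left out. Genes called among all tested numbered 3971, 6120 with voomWithQualityWeights and 2882 to 6330 when single libraries were left out, the highest without day 0 replicate 3. Scaling by median-of-ratios shifted the median over all tested genes (log2 fold change) from -0.11 to -0.01 and the share of higher calls from 40.3% to 52.1%; the other scalings gave 51.4% to 52.6%. Whether the replicate numbers pair the samples was not settled. Deviations of libraries with the same number at day 0 and day 7 correlated at -0.017, -0.181 and -0.444. Those of libraries with different numbers correlated at -0.271 to 0.356. Deviations from the mean of 3 libraries offset each other within a day, so these correlations cannot decide on pairing. With a replicate block 3413 genes were called. Phex, Sost and Fam20c then stayed past the threshold (Fam20c adjusted p = 0.00159) and Cd44 did not (0.598). Where values changed, the cause was not tested. Depth limits Fgf23 and the day 0 level of Sost, which lie at or under 3 reads, and 3 libraries a day cannot bring an exact p under 0.1.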

Other observations

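Pdpn was not alone in being listed at 0 under more than 1 identifier. Of the 41 protein-coding symbols with 2 or more identifiers that are at 0 in every library, 39 have exactly 1 identifier in GENCODE M21. The 41 include Ppp1ca, Pold4, Ranbp1 and Gstp1, genes that most cells express and that were named after their values were seen. Within 300000 bases of Pdpn on chromosome 4, the next 8 protein-coding genes after it are listed at 0 as well; Pramef8, Gm13043 and Gm13040 among them have 1 identifier each, and the other five have 2.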
